A study of Homo sapiens with 15 samples.

Results

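Mature miRNAs of HIF2α-knockout (HIF2α-KO) U87-MG cells were compared with those of control U87-MG cells, both cultured in 1% O2 for 24 h. The members of the comparison were the 6 libraries whose labels gave these genotypes and this treatment, 3 HIF2α-KO and 3 control, of 15 miRNA-Seq libraries in the series. U87-MG is an established human glioblastoma cell line. The knockouts were made with CRISPR/Cas9, by lentiviral transduction of a single-guide RNA in the lentiCRISPRv2 vector. Whether the HIF2α-KO cells were 1 clone or a mixed population was not stated, and the control cells were described only as free of interference with either factor. The other 9 libraries were control cells in 21% O2, HIF1α-KO cells in 1% O2 and HIF1α/HIF2α-KO cells in 1% O2, each for 24 h and each with 3 replicates.

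HIF2α is the oxygen-labile subunit, encoded by EPAS1, of a transcription factor that binds hypoxia response elements together with ARNT. It shares this partner and much of its DNA-binding specificity with HIF1α, and in glioblastoma it is best known for its expression in stem-like cells. Mature miRNAs guide Argonaute proteins to mRNAs through the seed, bases 2 to 8 from the 5′ end, so miRNAs with 1 seed form a family with overlapping targets. Many are cut from shared primary transcripts, and these polycistronic clusters are often transcribed as a unit. miR-210, the best known hypoxia-induced miRNA, is a textbook target of HIF1α.

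The HIF2α guide and its adjacent NGG motif (in capitals) are shown to place the edit.
HIF2α guide: cttggagggtttcattgccgTGG
The guide matched chr2:46356215-46356234 of GRCh38 on the plus strand, in exon 3 of the 16 exons of the EPAS1 transcript ENST00000263734.4 in GENCODE v29, within the coding sequence. EPAS1 mRNA was not measured by this assay, so the knockout could not be checked in these libraries. Within 1 Mb of EPAS1 the only listed miRNA was miR-559, which had too few counts to be tested.

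Sequences of some of the miRNAs named in the text are printed below from RefSeq (GRCh38.p14), with the seed in capitals. The first is miR-210-3p, the miRNA with the largest of the called differences between HIF2α-KO and HIF1α-KO cells.
miR-210-3p: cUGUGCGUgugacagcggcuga
The next 6 share the seed AAAGUGC and were all higher in HIF2α-KO. Their hairpins lie in 3 paralogous clusters, and miR-20b-5p and miR-106a-5p had few counts.
miR-17-5p: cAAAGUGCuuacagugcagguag
miR-20a-5p: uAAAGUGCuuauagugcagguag
miR-20b-5p: cAAAGUGCucauagugcagguag
miR-93-5p: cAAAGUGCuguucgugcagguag
miR-106a-5p: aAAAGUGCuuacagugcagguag
miR-106b-5p: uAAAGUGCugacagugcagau
The next 3 carry the miR-15/16 seed, AGCAGCA, and are those of its 6 tested members with an unadjusted p under 0.05.
miR-15a-5p: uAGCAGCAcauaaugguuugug
miR-16-5p: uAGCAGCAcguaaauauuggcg
miR-424-5p: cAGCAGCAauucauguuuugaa
miR-19b-3p and miR-671-5p had other seeds and were among the 10 highest differences.
miR-19b-3p: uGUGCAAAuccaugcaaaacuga
miR-671-5p: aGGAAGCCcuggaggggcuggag
On the lower side, the next 4 come from the 14q32 cluster and share no seed with each other.
miR-379-5p: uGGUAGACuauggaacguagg
miR-381-3p: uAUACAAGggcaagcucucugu
miR-411-3p: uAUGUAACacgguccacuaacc
miR-323a-3p: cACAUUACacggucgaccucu
The let-7 guide strands share GAGGUAG, and let-7f-1-3p is a passenger strand of that family.
let-7d-5p: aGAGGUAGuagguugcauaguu
let-7f-1-3p: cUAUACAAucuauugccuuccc

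The deposited values were raw counts of 1707 mature miRNAs in each library. The 6 libraries held 10620234 to 22496373 counts, and 3 counts, the limit that a count of 0 allows, corresponded to at most 0.282 CPM, the usual unit of counts scaled to library size. In all, 562 miRNAs passed the filter on low counts and held at least 99.988% of each library's counts. Levels below are CPM scaled by TMM factors, folds are log2 of HIF2α-KO over control, and p-values come from edgeR's quasi-likelihood test. Since the labels did not say that replicates were separate cultures, p-values measured the spread between these samples only. The glioma line markers fixed for the check, miR-21-5p, miR-10b-5p, miR-100-5p, miR-221-3p and miR-222-3p, summed to 346210 CPM or more in every library. Markers of other cells were present at lower levels. Those of endothelium (miR-126) summed to between 4.28 and 50.8 CPM, those of blood cells to between 4.75 and 24.1 CPM and those of epithelium to between 48.5 and 118 CPM. Mesenchymal markers summed to between 132 and 538 CPM, muscle markers to between 3.21 and 28.7 CPM, and liver markers were at 0. Neural tissue markers summed to between 5832 and 10636 CPM, nearly all of it miR-9-5p and miR-128-3p.

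The libraries of both groups fell into 2 kinds on miR-126, which is normally endothelial. HIF2α-KO replicates 1 and 3 and control replicate 1 had 34.7, 23.0 and 49.9 CPM of miR-126-3p, and HIF2α-KO replicate 2 and control replicates 2 and 3 had 4.28, 4.19 and 5.02 CPM. Within both groups the markers of endothelium, blood, epithelium and mesenchyme were highest in a library of the first kind. The part of these differences in the results was not tested beyond the fit with the kind of library as a term.

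No miRNA passed an adjusted p under 0.05 between HIF2α-KO and control in edgeR (0 of 562, 0.0%). The smallest adjusted p was 0.124. An unadjusted p under 0.05 was reached by 86 miRNAs (15.3% of those tested), 48 of them higher in HIF2α-KO (8.54%) and 38 lower (6.76%). DESeq2's Wald test gave 0 and 70, and limma on quantile-normalized values gave 0 and 80. In 92 miRNAs (16.4%) the 3 HIF2α-KO libraries did not overlap the 3 control libraries, 51 higher (9.07%) and 41 lower (7.3%), and 58 (10.3%) met both conditions. Adjusted calls appeared when 1 library was left out: 10 without HIF2α-KO replicate 1, and 1, miR-138-5p, without control replicate 1. With no filter on low counts edgeR called 11 and DESeq2 0. With the replicate number as a block, which the pairing of the numbers called for, there were 0 adjusted calls. The counts at an unadjusted p under 0.05 were then 75 over 15 libraries and 43 over the 6 libraries alone. Those 43 were 20 higher and 23 lower, and the smallest edgeR adjusted p was 0.530. The p-values, SEs and list counts below come from the fit without the block, except where the block is named.

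The direction depended on the scaling. Under TMM the median log2 fold of all 562 miRNAs was -0.01. Under scaling by total counts it was -0.15, and the same test then gave 23 higher and 66 lower miRNAs at an unadjusted p under 0.05. The most abundant miRNA, miR-21-5p, took 19.4, 23.1 and 23.1% of the HIF2α-KO counts and 17.1, 16.5 and 19.0% of the control counts, and with it left out before TMM scaling the split was 39 higher and 44 lower. Folds below are on the TMM scale, and those nearer to 0 than this shift depend on the scaling.

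miR-210 was the first miRNA of interest, given its place in the hypoxic response. miR-210-3p, the guide strand, was at 1443, 1996 and 1210 CPM in HIF2α-KO and 1152, 1039 and 935 CPM in control. All 3 HIF2α-KO libraries lay above all 3 control libraries, with HIF2α-KO replicate 2 the highest. The log2 fold was 0.57 (SE 0.30), with an edgeR adjusted p of 0.400 and an exact two-sided permutation p of 0.1, the smallest that 3 against 3 allow. Without HIF2α-KO replicate 2 the log2 fold was 0.33. The passenger strand, miR-210-5p, was at 43.5, 50.0 and 56.2 CPM in HIF2α-KO and 68.2, 42.1 and 36.0 CPM in control. Its groups overlapped, and its log2 fold was 0.03 (SE 0.29). MIR210 lies at chr11:568089-568198 on the minus strand, in an intron of the noncoding MIR210HG. In control cells the guide strand was at 1018, 1308 and 1236 CPM in 21% O2, which overlapped its level in 1% O2. The log2 fold of 1% over 21% O2 was -0.19 (SE 0.30, edgeR adjusted p 0.841), so in the reference group of the comparison no difference with oxygen was detectable.

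Of the families grouped by seed, AAAGUGC stood higher in HIF2α-KO in each of its 6 tested members, and 5 of them had an unadjusted p under 0.05, against the 8.54% of all miRNAs that were higher at that p. Its median log2 fold was 0.60, beside -0.01 over all tested, and 0.57 with the replicate block on the 6 libraries. This is the oncogenic miR-17 seed, known for repressing cell cycle inhibitors and pro-apoptotic mRNAs. The members come from miR-17-92 at chr13:91350605-91351391, whose host is MIR17HG, from miR-106b-25 in an intron of MCM7 on chromosome 7, and from miR-106a-363 on chromosome X.

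miR-17-5p, the member that names the seed, was at 302, 486 and 273 CPM in HIF2α-KO and 212, 206 and 218 CPM in control. The groups did not overlap, and the 3 control libraries lay close together. The log2 fold was 0.74 (SE 0.18) and the edgeR adjusted p 0.124. miR-20a-5p, cut from the same transcript, was at 283, 549 and 398 CPM in HIF2α-KO and 226, 245 and 301 CPM in control, with a log2 fold of 0.67 (SE 0.21). Here HIF2α-KO replicate 1 lay below control replicate 3, so the groups overlapped. From the MCM7 intron, miR-93-5p was at 1044, 1384 and 822 CPM in HIF2α-KO and 797, 730.1 and 733 CPM in control, with a log2 fold of 0.52 (SE 0.17) and no overlap. miR-106b-5p was at 100.3, 179.5 and 126 CPM in HIF2α-KO and 95.5, 81.6 and 103 CPM in control, with a log2 fold of 0.53 (SE 0.19), and HIF2α-KO replicate 1 lay among the controls. The 2 members of the X-linked cluster were scarce. They differ by 1 or 2 bases from the far more abundant miR-17-5p, so the few counts in them are uncertain. miR-20b-5p was at 2.35, 3.81 and 2.85 CPM in HIF2α-KO and 1.01, 1.90 and 1.67 CPM in control, without overlap and with a log2 fold of 0.93 (SE 0.25). miR-106a-5p, the member with the largest unadjusted p (0.315), was at 2.19, 4.28 and 1.99 CPM in HIF2α-KO and 2.67, 1.99 and 2.11 CPM in control, and its log2 fold of 0.33 was -0.12 without HIF2α-KO replicate 2. In every member HIF2α-KO replicate 2 was the highest of the 6 libraries. Without that library the log2 folds of miR-17-5p, miR-20a-5p, miR-93-5p and miR-106b-5p were 0.41, 0.38, 0.29 and 0.25. The family median was then 0.34, and without replicate 1 it was 0.77.

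Of the other products of the 3 clusters, miR-19b-3p, with the seed GUGCAAA, had the highest log2 fold of those without overlap that passed an unadjusted p under 0.05. It was at 49.3, 131 and 45.8 CPM in HIF2α-KO and 31.1, 28.2 and 34.6 CPM in control. The groups did not overlap, and HIF2α-KO replicate 2 held more than the other 2 replicates together. The log2 fold was 1.26 (SE 0.32) with an edgeR adjusted p of 0.124, and 0.58 without that library. miR-19a-3p, which differs from it by 1 base, overlapped between the groups, with a log2 fold of 0.37 (SE 0.30). miR-92a-3p, the most abundant product of the cluster, was at 13117, 12111 and 10355 CPM in HIF2α-KO and 12525, 9177 and 9549 CPM in control, with overlap and a log2 fold of 0.19 (SE 0.13). Over the 9 tested products of miR-17-92, 3 had an unadjusted p under 0.05 (33.3%, beside 15.3% over all tested), all higher, and the median was 0.19. Over the 6 of miR-106b-25 the counts were 2 higher and 0 lower (33.3%), with a median of 0.01. miR-25-3p of that cluster, which carries the miR-92 seed, was at 3582, 3794 and 2979 CPM in HIF2α-KO and 4040, 3864 and 3793 CPM in control.

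The miR-15/16 seed, AGCAGCA, is known for repressing cyclins and BCL2. Of its 6 tested members, 3 were higher at an unadjusted p under 0.05 and 0 lower (50.0%, beside 15.3% over all tested), with a median of 0.39. miR-16-5p, the most abundant, was at 1198, 1960 and 1627 CPM in HIF2α-KO and 1232, 986 and 1038 CPM in control. HIF2α-KO replicate 1 lay between the controls, and the other 2 lay above all of them. The log2 fold was 0.56 (SE 0.16) with an edgeR adjusted p of 0.129. miR-15a-5p, from the DLEU2 locus on chromosome 13, was at 13.8, 20.3 and 17.2 CPM in HIF2α-KO and 13.2, 11.2 and 12.6 CPM in control, without overlap. Without HIF2α-KO replicate 2 the log2 fold was 0.36 for miR-16-5p and, against 0.47 with it, 0.31 for miR-15a-5p. miR-424-5p, a hypoxia-associated member on chromosome X, was at 17.2, 26.2 and 23.6 CPM in HIF2α-KO and 11.2, 15.1 and 15.5 CPM in control, also without overlap, with a log2 fold of 0.68 (SE 0.24). miR-15b-5p shares the primary transcript of MIR16-2 in an intron of SMC4, and was at 179.6, 173 and 176 CPM in HIF2α-KO and 199, 174 and 174 CPM in control, with a log2 fold of -0.05 (SE 0.11). miR-503-5p, which follows MIR424 on its transcript, was at 66.0, 69.9 and 52.5 CPM in HIF2α-KO and 64.2, 57.0 and 63.6 CPM in control, a log2 fold of 0.03 (SE 0.15). Over the 8 tested products of the miR-424 and miR-503 cluster 1 was higher and 0 lower (12.5%, below the 15.3% over all tested). The median of the cluster was -0.08. It was 0.10 with the kind of library as a term, 0.03 with the replicate block on the 6 libraries and 0.12 with a GC correction.

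The imprinted 14q32 cluster stood on the other side. It is a large miRNA domain downstream of MEG3, expressed from the maternal allele and prominent in brain and placenta. Of 93 names in the list 74 were in the files and 24 were tested. Of these 24, 7 were lower in HIF2α-KO at an unadjusted p under 0.05 and 0 higher, beside 6.76% lower over all tested, and 21 had a log2 fold below 0. The median was -0.55, and -0.56 over the 22 of them tested with the replicate block on the 6 libraries. The sum of the 74 was 80.2, 73.9 and 89.0 CPM in HIF2α-KO and 131, 175 and 108 CPM in control. The groups did not overlap in this sum, and control replicate 3 was nearest to HIF2α-KO.

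miR-381-3p was the most abundant tested member, at 25.4, 21.0 and 27.0 CPM in HIF2α-KO and 45.9, 67.9 and 40.9 CPM in control. Every HIF2α-KO library was below every control library, with a log2 fold of -1.08 (SE 0.26) and an edgeR adjusted p of 0.124. miR-379-5p was at 6.03, 8.94 and 7.79 CPM in HIF2α-KO and 12.4, 18.8 and 11.9 CPM in control, with a log2 fold of -0.93 (SE 0.29). miR-654-3p was at 10.8, 8.28 and 10.2 CPM in HIF2α-KO and 15.4, 21.6 and 13.0 CPM in control, with a log2 fold of -0.77 (SE 0.33). These 3 did not overlap between the groups, nor did miR-411-3p, miR-323a-3p, miR-382-3p and miR-379-3p, all 4 under 5 CPM in every library. miR-411-3p was at 1.25, 0.761 and 0.760 CPM in HIF2α-KO and 1.47, 1.86 and 2.62 CPM in control, and miR-323a-3p at 0.861, 1.05 and 0.950 CPM in HIF2α-KO and 2.12, 1.86 and 1.60 CPM in control. The 3 members with a fold above 0 were each under 2 CPM in every library. The lower values ran along the cluster, over the 17 linked hairpins from MIR379 to MIR134, at chr14:101022066-101054759 in the MEG8 region. Of their 19 tested products 6 were lower and 0 higher (31.6%, beside 15.3% over all tested), with a median of -0.52. miR-127-3p, from the upstream group of the domain, was at 3.29, 0.761 and 1.23 CPM in HIF2α-KO and 4.15, 0.951 and 0.728 CPM in control, with no separation. The median of the 24 was -0.70 on total counts and ran from -0.68 to -0.47 when each library was left out in turn.

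**Figure D1:**
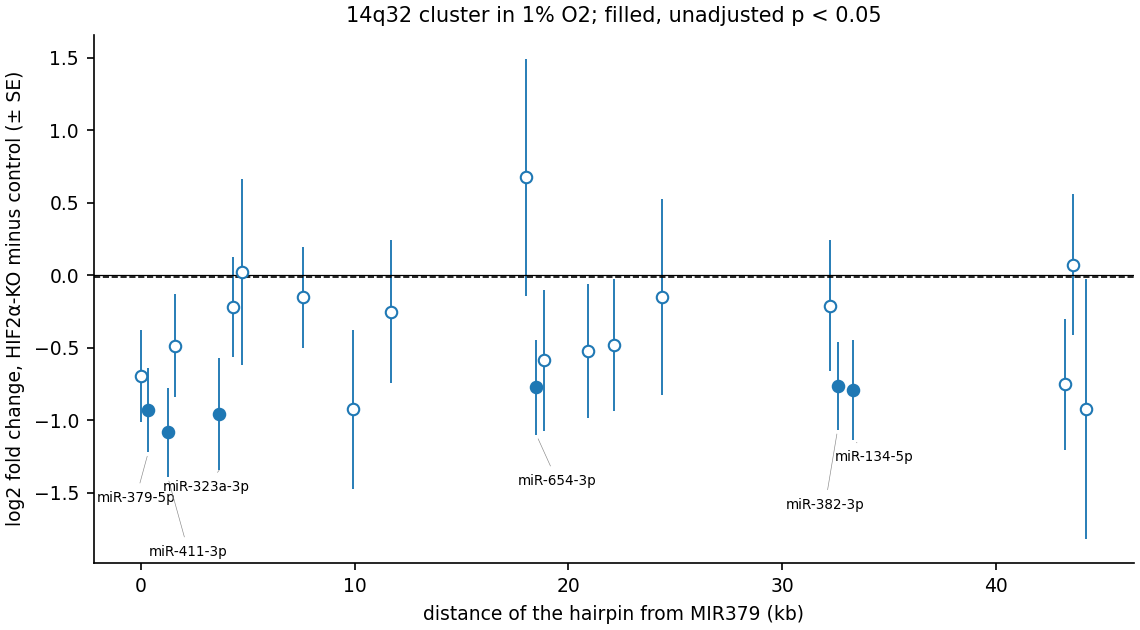
Log2 fold change with its SE (vertical bars), HIF2α-KO minus control, for 22 tested 14q32 products with a RefSeq hairpin in the stretch that starts at MIR379, against the distance of the hairpin from MIR379 (kb). Filled points had an unadjusted p under 0.05, and the dashed line is the median of all 562 tested miRNAs, -0.01.

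The let-7 family, a set of tumour-suppressive miRNAs that repress RAS and HMGA2, held a large share of each library. Its 9 guide strands took 25.4, 19.8 and 24.9% of the counts in HIF2α-KO and 26.6, 29.4 and 29.1% in control. HIF2α-KO replicate 2 was the lowest and the groups did not overlap in this share of total counts. On the TMM scale the sums were 267658, 217693 and 277224 CPM in HIF2α-KO and 260362, 286100 and 295634 CPM in control, and overlapped. All 9 had a log2 fold below 0, but with a median of -0.15, the size of the shift between the scalings, and only let-7d-5p had an unadjusted p under 0.05. It was at 556, 448 and 443 CPM in HIF2α-KO and 570.1, 659 and 758 CPM in control, without overlap, with a log2 fold of -0.46 (SE 0.19) and an edgeR adjusted p of 0.296. let-7a-5p, the most abundant, was at 109550, 84455 and 107766 CPM in HIF2α-KO and 105349, 113218 and 117265 CPM in control. After a correction for the GC content of the mature sequence the median of the 9 was -0.01.

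Of 11 tested passenger strands of let-7, 2 were lower at an unadjusted p under 0.05 and 0 higher (18.2%, near the 15.3% over all tested), and the median was -0.25. let-7f-1-3p was at 5.56, 3.33 and 8.93 CPM in HIF2α-KO and 11.1, 13.8 and 14.1 CPM in control, without overlap, and let-7d-3p at 90.1, 99.3 and 99.9 CPM in HIF2α-KO and 124, 116 and 119.5 CPM in control, without overlap. let-7a-3p was at 194, 171 and 585 CPM in HIF2α-KO and 275, 682 and 860 CPM in control. HIF2α-KO replicate 3 and control replicate 1 crossed, and its SE was 0.71 on a log2 fold of -0.94. With the kind of library as a term its log2 fold was -0.36. Both let-7d strands and let-7f-1-3p come from MIRLET7A1 to MIRLET7D at chr9:94175957-94178920. There 3 of 6 tested products were lower and 0 higher (50.0%, beside 15.3% over all tested), with a median of -0.43.

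Further along chromosome 9 lies the MIR23B, MIR27B and MIR24-1 cluster, in C9orf3, where the first 2 hairpins are intronic and MIR24-1 overlaps an exon. With its paralog on chromosome 19 and MIR3074, which lies opposite MIR24-1 on the other strand, it gave 11 tested products. Of these 5 were lower at an unadjusted p under 0.05 and 0 higher (45.45%, beside 15.3% over all tested), with a median of -0.23. miR-27b-3p was at 10769, 11837 and 10633 CPM in HIF2α-KO and 12296, 12788 and 13877 CPM in control. The groups did not overlap and the log2 fold was -0.23 (SE 0.10). miR-27a-3p gave nearly the same values in every library. miR-27b-5p, the passenger strand, was at 60.3, 37.2 and 48.3 CPM in HIF2α-KO and 71.7, 80.2 and 70.3 CPM in control, with a log2 fold of -0.61 (SE 0.23). miR-23b-5p had a log2 fold of -0.68 (SE 0.31), which was -0.44 without HIF2α-KO replicate 2 and -1.21 without replicate 1. miR-3074-3p, from the antisense hairpin, had one of -0.66 (SE 0.23). Whether the counting used strand was not given in the sources used here. The guide strands miR-23b-3p and miR-24-3p did not go with them, at log2 folds of 0.06 (SE 0.09) and -0.05 (SE 0.13). Of all 29 tested miRNAs with a hairpin on chromosome 9, 7 were lower and 0 higher at that p. All of them were products of MIRLET7A1 to MIRLET7D, of MIR23B to MIR24-1 or of MIR3074, already counted above. Of 31 on chromosome 14, 8 were lower, including the 6 of MIR379 to MIR134 counted above, and 1 was higher. Over all tested, 6.76% were lower and 8.54% higher. Chromosome X had 7 higher and 1 lower of 48, near the 15.3% over all.

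The smaller families with higher members came next. The miR-146 family, known for damping NF-κB signalling, had 3 tested members, all with a fold above 0. Of these 2 had an unadjusted p under 0.05 (66.7%, beside 15.3% over all tested). miR-146b-5p was at 197, 209 and 257 CPM in HIF2α-KO and 144, 158 and 137 CPM in control, without overlap, with a log2 fold of 0.60 (SE 0.17). miR-146a-5p was at 151, 154 and 185 CPM in HIF2α-KO and 113, 125 and 101 CPM in control, also without overlap, and in these libraries the counts of the pair kept a ratio of 1.27 to 1.39. Of the miR-34 family, the p53-induced miRNAs, miR-34c-5p was at 10.3, 13.8 and 12.4 CPM in HIF2α-KO and 8.02, 7.39 and 6.70 CPM in control, without overlap and with a log2 fold of 0.73 (SE 0.21). miR-34a-5p was at 289.7, 486 and 356 CPM in HIF2α-KO and 329, 199 and 238 CPM in control, with control replicate 1 above HIF2α-KO replicate 1. Its log2 fold was 0.56, and 0.32 without HIF2α-KO replicate 2. Of 5 tested miR-320 members, noncanonical miRNAs made without Drosha, 3 were higher and 0 lower, beside 15.3% over all tested. Their median was 0.37, and 0.19 without HIF2α-KO replicate 2. Only 1 of the 5, miR-320c, did not overlap between the groups. The family sum was 1154, 1341 and 854 CPM in HIF2α-KO and 817.5, 874.5 and 911 CPM in control, with HIF2α-KO replicate 3 among the controls. Of 11 tested miR-30 members, 2 were higher and 0 lower (18.2%, near the 15.3% over all tested), miR-30a-5p at 1709, 2790 and 2011 CPM in HIF2α-KO and 1629, 1391 and 1687 CPM in control and miR-30d-5p at 5289, 6465 and 4530 CPM in HIF2α-KO and 3672, 4128 and 4094 CPM in control, both without overlap. Without HIF2α-KO replicate 2 their log2 folds were 0.22 and 0.28, against 0.47 and 0.45 with it. miR-222-3p, which represses the cell cycle inhibitor p27, was at 22048, 18862 and 13970 CPM in HIF2α-KO and 14383, 13864 and 14061 CPM in control, with a log2 fold of 0.38 (SE 0.14), and 0.21 without HIF2α-KO replicate 1.

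Other named lists were mixed. Among 15 tested miRNAs reported as hypoxia-responsive in the literature of the field, 4 were higher and 1 lower at an unadjusted p under 0.05. This was 33.3%, beside 15.3% over all tested. The median was 0.13, and it was -0.01 on total counts and 0.05 with the kind of library as a term. The higher ones included miR-107, which shares its seed with miR-103a and was at 1604, 2182 and 1369 CPM in HIF2α-KO and 1328, 1188 and 1240 CPM in control. Its log2 fold was 0.46, and 0.23 without HIF2α-KO replicate 2. Among 15 tested neural miRNAs, 1 was higher and 2 lower at that p, a share near the 15.3% over all tested. miR-138-5p was at 860.4, 999 and 923 CPM in HIF2α-KO and 771, 542 and 480 CPM in control, without overlap and with a log2 fold of 0.63 (SE 0.16). The lower miR-128-3p was at 1635, 950.5 and 1175 CPM in HIF2α-KO and 1467, 2146 and 2178 CPM in control. miR-218-5p was at 296, 241 and 279 CPM in HIF2α-KO and 276, 465 and 512 CPM in control. In both of these HIF2α-KO replicate 1 lay above control replicate 1, so the groups overlapped. Of the 4 products of the cancer-germline miR-105 and miR-767 cluster all lay below 0. Only 1 of them (25.0%, beside 15.3% over all tested), miR-105-5p, had an unadjusted p under 0.05, with a log2 fold of -0.44 (SE 0.16). The HOX-embedded miR-615-3p was at 68.1, 32.9 and 37.3 CPM in HIF2α-KO and 70.1, 89.4 and 79.9 CPM in control, without overlap and with a log2 fold of -0.79 (SE 0.25), and -1.20 without HIF2α-KO replicate 1.

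The 10 highest and 10 lowest folds among miRNAs with an unadjusted p under 0.05 and no overlap were mostly scarce. Besides miR-19b-3p and miR-20b-5p, the higher ones were miR-10395-5p, miR-887-3p, miR-671-5p, miR-1226-3p, miR-12136, miR-3180-3p, miR-99a-3p and miR-3180. miR-671-5p, a miRNA that directs cleavage of the circular RNA CDR1as, was the most abundant of the 10, at 95.7, 158 and 84.7 CPM in HIF2α-KO and 73.2, 56.1 and 51.5 CPM in control. It had a log2 fold of 0.91 (SE 0.24) and an edgeR adjusted p of 0.124, and the fold was 0.56 without HIF2α-KO replicate 2. Its partner arm miR-671-3p went the other way, at 269, 154 and 176 CPM in HIF2α-KO and 271, 262 and 249 CPM in control, with a log2 fold of -0.39 (SE 0.17), which was -0.25 without HIF2α-KO replicate 2 and -0.68 without replicate 1. miR-10395-5p was at 9.39, 16.1 and 10.7 CPM in HIF2α-KO and 7.56, 3.67 and 4.66 CPM in control, with a log2 fold of 1.20 (SE 0.35). miR-3180 and miR-3180-3p hold the same bases over their shared length and kept a count ratio of 1.50 to 1.58, so they are not independent. On the lower side, besides the 4 members of 14q32 and let-7f-1-3p, were miR-378i, miR-5699-3p, miR-5100, miR-3617-5p and miR-4661-5p. miR-378i was at 0.548, 0.381 and 0.665 CPM in HIF2α-KO and 1.01, 1.34 and 1.24 CPM in control, from 7, 4 and 7 counts in HIF2α-KO and 11, 31 and 17 counts in control, with a log2 fold of -1.17 (SE 0.33). miR-3617-5p was at 7.75, 6.57 and 7.22 CPM in HIF2α-KO and 10.4, 14.7 and 14.4 CPM in control, with a log2 fold of -0.88 (SE 0.23).

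Folds larger in size than these belonged to miRNAs whose libraries overlapped. miR-652-5p, for example, was at 1.96, 8.28 and 3.99 CPM in HIF2α-KO and 2.21, 1.56 and 1.31 CPM in control, with a log2 fold of 1.49 (SE 0.41), and 0.79 without HIF2α-KO replicate 2. miR-1297 was at 0, 0.381 and 0.0950 CPM in HIF2α-KO and 0.0921, 1.51 and 1.67 CPM in control, where HIF2α-KO replicate 1 held 0 counts. Its first bases match those of the far more abundant miR-26a-5p, so the few counts in it are uncertain.

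By abundance, the share of miRNAs with an unadjusted p under 0.05 was larger among abundant miRNAs, and the direction was mixed. Of 16 miRNAs at 10000 CPM or more on average, which took 88.1% to 89.8% of the counts in each library, 2 were higher and 2 lower at an unadjusted p under 0.05. The 2 lower ones were miR-27a-3p and miR-27b-3p, which kept a near-fixed count ratio and are not independent, so the share of this class rests on few miRNAs. Of 26 between 1000 and 10000 CPM, 5 were higher and 2 lower. Of 86 between 100 and 1000 CPM, 12 were higher and 5 lower. Of 118 between 10 and 100 CPM, 8 were higher and 11 lower, and of 316 under 10 CPM, 21 were higher and 18 lower. In this order the shares were 25.0%, 26.9%, 19.8%, 16.1% and 12.3%, beside 15.3% over all. The medians were -0.03, 0.06, 0.01, 0.02 and -0.04 in the same order. The middle part of the log2 folds, from the lower to the upper quartile, ran from -0.17 to 0.23 in the top class and from -0.37 to 0.25 in the lowest.

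In the top class miR-21-5p, the dominant oncogenic miRNA of glioma, was at 204525, 253571 and 257693 CPM in HIF2α-KO and 167526, 160457 and 192555 CPM in control. The groups did not overlap. The log2 fold was 0.46 (SE 0.13) with an edgeR adjusted p of 0.124, and 0.32 on total counts. miR-100-5p was at 175666, 194244 and 174883 CPM in HIF2α-KO and 170176, 148114 and 145717 CPM in control, without overlap, with a log2 fold of 0.23 (SE 0.13), which was -0.11 with limma on quantile-normalized values. miR-99a-5p, which differs from it by 1 of 22 bases, kept a count ratio to it of 0.981 to 0.985 in the 6 libraries.
miR-100-5p: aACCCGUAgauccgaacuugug
miR-99a-5p: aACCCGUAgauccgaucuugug
The ratio was also close to fixed for miR-27b-3p over miR-27a-3p (0.982 to 0.997), for miR-30e-3p over miR-30a-3p (1.01 to 1.02) and for miR-18b-5p over miR-18a-5p (0.936 to 1.00), pairs that also differ by 1 base. Also at 1 base of difference, miR-19b-3p was 3.42 to 11.0 times miR-19a-3p, a wider range. miR-17-5p was 79.5 to 138 times miR-106a-5p, which held only 21 to 46 counts per library. With so few counts this range cannot show whether that ratio was fixed. How reads that fit several miRNAs were assigned was not given in the sources used here, so the members of a pair with a near-fixed ratio are not independent, and the counts over lists hold both.

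Arms of 1 hairpin went the same way more often than not. In 135 hairpins with both arms tested, 85 (63%) had folds of 1 sign, with a Pearson r of 0.38 and a Spearman rho of 0.40 across hairpins, given as a description since the arms share libraries. The median was -0.01 for the more abundant arm and -0.05 for the other. Besides miR-671, an example of arms that stood apart was miR-17, chosen after its values were seen: miR-17-3p was at 4.23, 4.47 and 3.42 CPM in HIF2α-KO and 3.96, 4.75 and 5.10 CPM in control, with a log2 fold of -0.19 (SE 0.25), against 0.74 for its partner.

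Of the 562 tested miRNAs, 513 (91.28%) matched a RefSeq mature sequence. The Spearman correlation of the log2 fold with the GC content of the sequence was 0.17 over these 513, given as a description. The median fold was -0.20 for 97 miRNAs under 40% GC and 0.03 for 89 at 60% or more. The libraries themselves differed in this respect within both groups: the correlation of a library's deviation with GC content ran from -0.43 in HIF2α-KO replicate 3 to 0.41 in HIF2α-KO replicate 1, and from -0.40 to 0.39 in control. With a GC correction the medians of the seed AAAGUGC family and of 14q32 were 0.67 and -0.51, and 91 of 513 miRNAs had an unadjusted p under 0.05, with 0 after adjustment.

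To see where HIF2α loss differed from HIF1α loss, the HIF2α-KO libraries were set against the HIF1α-KO libraries, which were cultured alike. Of 562 miRNAs, 6 (1.07%) differed at an adjusted p under 0.05, 5 higher in HIF2α-KO and 1 lower, and 98 (17.4%) at an unadjusted p under 0.05. With the replicate block over 15 libraries 3 calls were left, both arms of miR-210 and miR-584-5p. Fitted on these 6 libraries alone 0 passed, and DESeq2 called 20. Without HIF2α-KO replicate 2 the count was 3, without HIF1α-KO replicate 2 it was 2, and without HIF1α-KO replicate 3 it was 18. Both arms of miR-210 were among the 6. In HIF1α-KO miR-210-3p was at 249.6, 240.5 and 436 CPM, and HIF2α-KO was higher by 2.33 on the log2 scale (SE 0.32, edgeR adjusted p 0.00240). For miR-210-5p, at 11.0, 9.14 and 17.4 CPM in HIF1α-KO, the difference was 2.00 (SE 0.30, adjusted p 0.00323). Against the shared control the log2 folds of miR-210-3p were 0.57 in HIF2α-KO, -1.76 in HIF1α-KO and -2.21 in HIF1α/HIF2α-KO.

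miR-671-5p was at 47.7, 39.3 and 63.6 CPM in HIF1α-KO and differed by 1.17 (SE 0.25, adjusted p 0.0299). miR-378i, at 1.55, 1.61 and 1.98 CPM there, was the 1 that was lower in HIF2α-KO, with a log2 difference of -1.66 (SE 0.32, adjusted p 0.0223). The other 2, miR-584-5p and miR-503-5p, were chosen after their values were seen. They were at 14.2, 14.4 and 12.5 CPM and 66.0, 69.9 and 52.5 CPM in HIF2α-KO, within or near the control range (12.9, 12.7 and 12.4 CPM and 64.2, 57.0 and 63.6 CPM), and at 8.31, 6.16 and 6.65 CPM and 34.1, 33.0 and 44.4 CPM in HIF1α-KO. The seed AAAGUGC family was not among the 6. Its medians against the shared control were 0.60 in HIF2α-KO, 0.32 in HIF1α-KO and 0.40 in HIF1α/HIF2α-KO, and those of 14q32 were -0.55, -0.17 and -1.56. In the same order the medians were 0.54, 0.54 and 0.38 for miR-146 and 0.37, 0.34 and 0.15 for miR-320. For the miR-105 and miR-767 cluster they were -0.35, -1.20 and -0.78.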

How the data were processed

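Small RNA libraries of U87-MG cells were made from RNA extracted with Trizol and miRNeasy columns, 15 in all, in 5 groups of 3, and the 6 libraries compared were the HIF2α-KO and control groups in 1% O2. Groups followed the labels, and 0 columns were left unmapped. The deposited files hold raw counts, 1 whole number per mature miRNA and library. The submitters' processing notes name HISAT2, StringTie and DESeq2 without a role. The genome build, miRNA annotation and handling of reads that fit several miRNAs were not given in the sources used here, and the study's methods name quantile normalization with limma. Counting error only is covered by the limit of 3 counts.

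From the counts, edgeR 4.0.16 (R 4.3.3) was used with filterByExpr on the 5 groups, TMM factors, the quasi-likelihood test on all 15 libraries and Benjamini-Hochberg adjustment over 562 miRNAs. The test was checked on simulated counts, drawn independently for each library and with changes larger than most seen here. They held no kinds of library, GC trends or replicate pairing, so the check cannot show how the test behaves with these. Seeds are bases 2 to 8 of the RefSeq mature sequence, and hairpins within 10 kb on 1 strand form a cluster. Abundance classes were divided at 10, 100, 1000 and 10000 CPM. Lists were described by counts and medians, without a test.

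Members and lists were chosen with earlier results of these data known. The miRNAs named were both arms of miR-210, the 10 highest and 10 lowest log2 folds among those without overlap at an unadjusted p under 0.05, the 10 most abundant, members of the lists, and miRNAs called in an alternative that made 15 calls or fewer. Other names are given as chosen after their values were seen.

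No 2 libraries of a group were identical, and their counts differed beyond sampling noise (chi-square per degree of freedom 93.1 to 401). The labels number the replicates alike in both groups. Deviations from the group means correlated at 0.523, 0.192 and 0.125 between libraries with the same number over 562 miRNAs. HIF2α-KO replicate 2 correlated more with control replicate 3 (0.387). The numbers were treated as pairing the libraries in the fits with the replicate block, and the main fit held no such term. The alternatives were DESeq2 size factors, total counts, limma 3.58.1 on quantile-normalized log2(CPM + 1), DESeq2 1.42.0, 2 other filters, the 6 libraries alone, the replicate block, the kind of library on miR-126, miR-21-5p left out, and each library left out. After the data were seen, 3 were added: DESeq2 without a filter, a GC correction, and the block with that correction.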

Additional observations from a re-analysis of the deposited data

Results flagged for a closer look

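The difference between the effects of HIF2α and HIF1α loss was tested directly, as HIF2α-KO minus HIF1α-KO, and 6 miRNAs passed an edgeR adjusted p under 0.05. The log2 difference was 2.33 for miR-210-3p and 2.00 for miR-210-5p. It was 1.17 for miR-671-5p, 0.964 for miR-584-5p, 0.758 for miR-503-5p and -1.66 for miR-378i. The miR-210 arms passed in 15 of the 17 alternatives that gave a value, miR-378i in 11 of 16, miR-671-5p in 9 of 17, miR-584-5p in 8 of 17 and miR-503-5p in 7 of 17. With the replicate block over 15 libraries the adjusted p was 0.0052 for both miR-210 arms and 0.0386 for miR-584-5p, and 0.0627, 0.0722 and 0.0815 for miR-378i, miR-503-5p and miR-671-5p. With the block over the 6 libraries alone it was 0.347 for both miR-210 arms and 0.722 for the other 4.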

How the results depend on the processing

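The count of miRNAs with an edgeR adjusted p under 0.05 between HIF2α-KO and control was 0 except with no filter (11), without HIF2α-KO replicate 1 (10) and without control replicate 1 (1), so leaving out 1 library gave 0 to 10. The count at an unadjusted p under 0.05 was 86. It was 43 with the replicate block on the 6 libraries and 51 to 98 with 1 library left out, lowest without control replicate 2. The count between HIF2α-KO and HIF1α-KO was 6. It was 12 with total counts, 20 with DESeq2, 14 with no filter and 14 with at least 10 counts in every library. It was 0 on the 6 libraries alone, 3 with the replicate block over 15 libraries and 0 with the block on 6, and 2 to 18 with 1 library left out. The replicate block was not fitted with total counts, DESeq2, the other filters or 1 library left out, so its effect on those calls was not tested. The causes of these shifts were not tested, apart from the fewer libraries in some of the fits. Of 76 lists with 3 or more tested members, 48 had a median above 0 on the TMM scale, beside 273 of the 562 miRNAs. The lists share members, so they are not independent. Several of these medians lay below 0 on total counts, such as miR-106b-25 (-0.13), miR-378 (-0.13) and the hypoxia-responsive miRNAs (-0.01).

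Of 1715 values of 87 single miRNAs under 20 alternatives, 1658 kept their direction and 57 turned. No value of the 10 highest and 10 lowest folds turned. These were picked for large folds without overlap, so their direction was largely fixed by that choice. Of 54 miRNAs with an unadjusted p under 0.05 among the 87, 17 came nearer to 0 by over 1.5 times without HIF2α-KO replicate 2 and 1 without HIF2α-KO replicate 1. The turned log2 folds follow. With total counts it was -0.111 for miR-210-5p, -0.0669 for miR-10b-5p, -0.056 for miR-126-3p, -0.0231 for miR-18a-5p, -0.0724 for miR-18b-5p, -0.0817 for miR-23b-3p, -0.107 for miR-503-5p and -0.0238 for miR-584-5p. With the kind of library as a term it was -0.0367 for miR-210-5p, 0.133 for miR-374a-5p, -0.332 for miR-126-3p and 0.179 for miR-9-5p. With the GC correction it was -0.0144 for miR-210-5p, 0.0177 for let-7i-5p, 0.122 for let-7g-5p, 0.0113 for miR-127-3p, -0.000318 for miR-503-5p and 0.0471 for miR-9-5p. With the replicate block and the GC correction it was -0.0342 for miR-210-5p, 0.0141 for let-7i-5p, 0.114 for let-7g-5p and 0.0489 for miR-9-5p. With limma on quantile-normalized values it was -0.114 for miR-100-5p, 0.0405 for let-7i-5p, 0.0852 for let-7g-5p, -0.0334 for miR-10b-5p, 0.0368 for miR-127-3p and -0.0112 for miR-18b-5p. With no filter it was -0.0158 for miR-503-5p. Without miR-21-5p before scaling it was -0.0039 for miR-503-5p. With each library left out in turn it ran from -0.123 to 0.349 for miR-210-5p, -0.0959 to 0.0177 for let-7i-5p, -0.109 to 0.0132 for let-7g-5p, -0.115 to 0.478 for miR-106a-5p, -0.051 to 0.192 for miR-10b-5p, -0.544 to 2.17 for miR-126-3p, -0.887 to 1.07 for miR-127-3p, -0.111 to 0.0176 for miR-15b-5p, -0.0348 to 0.272 for miR-18b-5p, -0.0351 to 0.0763 for miR-23b-3p, -0.221 to 0.0099 for miR-24-3p, -0.0788 to 0.0789 for miR-503-5p and -0.563 to 0.113 for miR-9-5p. Of 30 lists, 10 had a median that turned sign under at least 1 alternative: the 5 abundance classes, miR-106b-25, miR-424 with miR-503, miR-99/100 with miR-125, the neural miRNAs and the hypoxia-responsive miRNAs. At this depth 3 counts corresponded to up to 0.282 CPM, so the many members of 14q32 under 1 CPM rested on few counts.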

Other observations

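Some abundant miRNAs varied several-fold within both groups. miR-374a-5p was at 8.45, 32.7 and 204 CPM in HIF2α-KO and 41.6, 193 and 244 CPM in control, with a log2 fold of -0.97 (SE 1.10), which was 0.13 with the kind of library on miR-126 as a term. miR-26b-5p was at 538, 641 and 1577 CPM in HIF2α-KO and 851, 1723 and 2034 CPM in control, with a log2 fold of -0.74 (SE 0.54). Both were among the 11 miRNAs that edgeR called with no filter on low counts, and neither had an unadjusted p under 0.05 with the filter. In both miRNAs the lowest of the 6 libraries was HIF2α-KO replicate 1, and within control the lowest was replicate 1.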
